A study of Mus musculus with 6 samples.

Results

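The genes described here are 56 genes of mitosis, covering mitotic entry, the spindle checkpoint, the chromosomal passenger complex, the kinetochore, the spindle, cytokinesis, anaphase onset and chromosome condensation. They are the genes of a named list whose level averaged at least 1 CPM (reads of the gene per 1000000 reads of the library) over 6 libraries of cultured mouse CD8 T cells. All 56 listed genes met that rule, so none was left out, and 10511 of the 25655 identifiers in each file met it. The lowest member was Cdc25c, at a mean of 3.08 CPM, the next was Espl1 at 12.3 CPM, and the highest was Top2a at 1199 CPM.

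RNA was measured in CD8 T cells isolated from spleens of female WT C57BL/6 mice, aged (around 65 weeks old, 3 libraries) or young (6 weeks old, 3 libraries). Cells of both groups were activated on plates with anti-TCR-β at 3 μg/ml and anti-CD28 at 1 μg/ml in IL-2 at 10 ng/ml for 2 days. They were then moved to new plates and kept in IL-2 at the same dose for 5 days, so that all RNA came from day 7 of culture. The comparison asks which mitotic genes differ with donor age in CD8 T cells that were activated and expanded in the same way. The cells were cultured for a week away from the animal, and the labels call the libraries biological replicates without saying whether each came from a separate mouse. The p-values therefore measure only the spread between these libraries, which may be technical. Bulk RNA gives 1 value per culture, so a different number of cells in mitosis and a different amount of mitotic RNA per cell cannot be told apart.

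Mitosis is driven by CDK1 bound to B-type cyclins, which is switched on by CDC25 phosphatases and assisted by the Polo and Aurora kinases. Condensin and topoisomerase II compact the chromosomes, kinetochores tie them to spindle microtubules, and the spindle checkpoint holds back the anaphase-promoting complex (APC/C) until every chromosome is attached. Once CDC20 activates the APC/C, securin and cyclin B are destroyed, separase opens cohesin, and the cell divides by a contractile ring. Activated CD8 T cells divide fast for several days and then slow, and most genes listed here are known to be expressed mainly in dividing cells, late in the cell cycle. Their shared timing is known to run through promoter elements named CHR, bound by the MuvB complex with its partners B-MYB (Mybl2) and FOXM1, and CCAAT, bound by NF-Y.

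The promoters of these genes carry those letters often, and 9 are shown to let the sequences be compared. Each is the 100 bases before an annotated start, read 5′ to 3′ along the gene's strand, from RefSeq on GRCm38.p6. Capitals mark the CHR letters (TTTGAA or TTCGAA) and CCAAT, on either strand, so that TTCAAA and ATTGG are their reverse forms. The first 5 belong to genes that rose in aged cells, from the kinase of mitotic entry to a component of chromosome structure. The sixth is Psrc1, the member that fell, at the downstream of its 2 listed starts.
Cdk1: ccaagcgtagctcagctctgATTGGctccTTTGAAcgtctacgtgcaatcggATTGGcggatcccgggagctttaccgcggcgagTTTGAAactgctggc
Cks1b: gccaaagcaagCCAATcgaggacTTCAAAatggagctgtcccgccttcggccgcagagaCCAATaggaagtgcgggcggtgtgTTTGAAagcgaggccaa
Cdc20: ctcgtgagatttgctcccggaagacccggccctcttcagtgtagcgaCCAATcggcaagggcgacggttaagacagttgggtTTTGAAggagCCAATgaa
Ube2c: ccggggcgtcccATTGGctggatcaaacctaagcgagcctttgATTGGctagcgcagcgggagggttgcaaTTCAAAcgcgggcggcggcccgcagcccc
Top2a: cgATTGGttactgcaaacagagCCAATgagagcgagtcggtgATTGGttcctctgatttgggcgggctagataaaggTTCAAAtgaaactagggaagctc
Psrc1: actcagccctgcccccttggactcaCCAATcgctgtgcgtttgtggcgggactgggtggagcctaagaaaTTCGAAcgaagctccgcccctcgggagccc
These stretches lie at chr10:69352913-69353012 (Cdk1, minus strand), chr3:89418292-89418391 (Cks1b, minus), chr4:118437344-118437443 (Cdc20, minus), chr2:164769829-164769928 (Ube2c, plus), chr11:99024190-99024289 (Top2a, minus) and chr3:108383738-108383837 (Psrc1, plus). The Cdk1 and Cks1b stretches each hold the CHR letters at 2 places, and the Psrc1 stretch holds the TTCGAA form.

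The other 3 belong to Mybl2 and Nuf2, which exceeded the mean change of the other members, and to Pttg1, which was not called, and they hold neither set of letters.
Mybl2: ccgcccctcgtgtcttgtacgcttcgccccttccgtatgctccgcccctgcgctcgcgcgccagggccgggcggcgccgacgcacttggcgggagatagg
Nuf2: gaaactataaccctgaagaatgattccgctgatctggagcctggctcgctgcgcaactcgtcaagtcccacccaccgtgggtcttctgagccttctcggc
Pttg1: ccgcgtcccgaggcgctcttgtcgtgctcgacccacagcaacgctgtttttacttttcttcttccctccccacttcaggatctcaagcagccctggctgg
They lie at chr2:163054535-163054634 (Mybl2, plus strand), chr1:169531465-169531564 (Nuf2, minus) and chr11:43425982-43426081 (Pttg1, minus). The absence says only that these letters are not in the window.

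RefSeq promoters of 250 bases before to 50 after the start were matched by symbol for 48 of the 56 genes, with 52 starts in all. Dlgap5, Incenp, Aurkb, Foxm1, Spc24, Tpx2, Smc4 and Cdc25c had no entry. The CHR letters stood in 35 of the 48 genes (72.9%), against 16.7% of the genes tested that have a promoter and 21.7% of all genes with one. CCAAT stood in 36 of 48 (75.0%), against 43.6% and 41.1%, and both stood in 32 of 48 (66.7%), against 7.10% and 8.61%. In 31 of the 35 genes the CHR letters lay within 50 bases of a start, while CCAAT was most frequent from 75 to 50 bases upstream. No member promoter held TATAAA, against 6.63% of the promoters of genes tested. A match is a description of the letters and not evidence of a bound site.

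**Figure D1:**
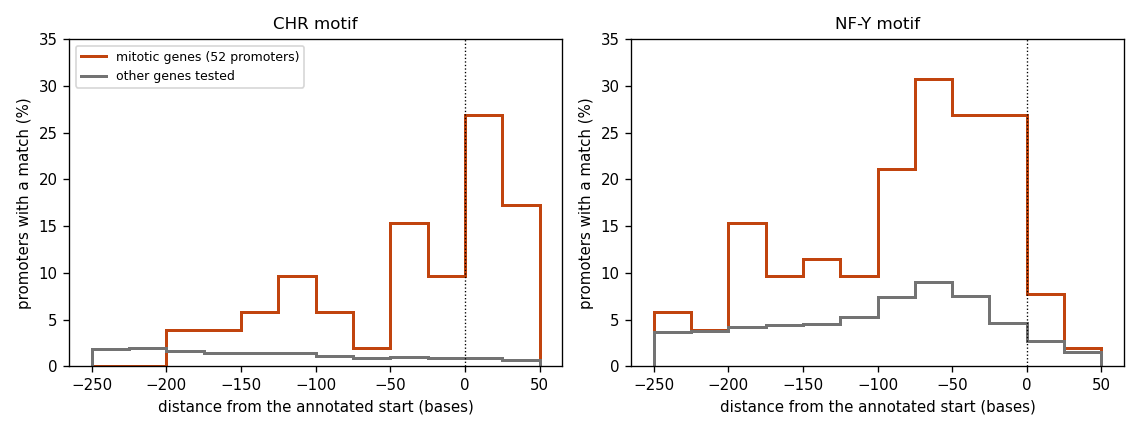
Share of promoters (%) with the CHR letters (left) and the NF-Y letters (right) in bins of 25 bases, by distance from the annotated start (0), for the 52 promoters of the mitotic genes (orange) and the promoters of the other genes tested (grey). CHR letters in mitotic genes peak at 26.9% just after the start, and NF-Y letters peak at 30.8% from 75 to 50 bases before it.

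Members with and without the letters rose. Of the 35 genes with CHR letters 30 rose in aged cells (limma adjusted p under 0.05), with a median log2 fold change of 0.67 and a range of -1.47 to 1.09. Of the 13 without them 10 rose, with a median of 0.74 and a range of -0.22 to 1.41. Among all genes tested 16.2% rose, with a median of 0.03.

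Libraries held 1952552 to 2785915 reads, so that 1 read was worth 0.359 to 0.512 CPM and 3 reads, the most that a count of 0 allows, 1.08 to 1.54 CPM. All 5 CD8 and CD3 markers were present, and their sum was 1577, 1628 and 1452 CPM in aged libraries, against 1905, 1976 and 1891 CPM in young libraries. Of these, only Cd8a overlapped between the groups, with 244 to 344 CPM in aged and 266 to 276 CPM in young libraries. Several defining markers of other cells were at or near 0: Cd79a, Ms4a1, Pax5, Lyz2, Adgre1, Klra8 and Hbb-bs had no read in any library, and Cd4 had at most 0.384 CPM. Csf1r, a myeloid marker, had 7.06 CPM in aged replicate 3 and 0 in every other library. Low signals that moved with age were those of the 5 B cell markers, all from Cd79b, with sums of 0 to 1.53 CPM in aged and 2.51 to 9.99 CPM in young libraries. The 6 erythroid markers summed to 1.15 to 4.71 CPM in aged and 10.00 to 22.3 CPM in young libraries. Among them Hbb-bt had 0 CPM in every aged library and 5.22 to 11.1 CPM in young libraries. The 3 NK markers summed to 11.9 to 17.9 CPM in aged and 20.4 to 26.5 CPM in young libraries, nearly all from Klrb1c. The 3 CD4 T cell markers summed to 11.3 to 16.1 CPM in aged and 18.1 to 23.7 CPM in young libraries, mostly from Zbtb7b. Cd40lg, 1 of these 3, went the other way, with 1.02 to 2.35 CPM in aged and 0.359 to 0.768 CPM in young libraries. The 6 myeloid markers summed to 101 to 131 CPM in aged and 130.3 to 134 CPM in young libraries, mostly from Cst3. Cst3 itself had 99.9 to 128.04 CPM in aged and 128.1 to 130.6 CPM in young libraries. Itgam was also lower in each aged library, with 0 to 0.941 CPM in aged and 1.44 to 4.35 CPM in young libraries. Cd14 overlapped, with 0.471 to 2.68 CPM in aged and 0 to 0.718 CPM in young libraries. The part of these signals in the results below was not tested.

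Mitotic genes were higher in aged than in young CD8 T cells on day 7. Of the 56 members, 48 rose, 1 fell (Psrc1) and 7 were not called, where a call is a limma adjusted p under 0.05 with the adjustment over all 10511 genes. Among all genes tested 16.2% rose, 12.5% fell and 71.3% were not called. That split turned with the scaling, with 1701 genes higher and 1313 lower in CPM and 1428 higher and 1555 lower under TMM, whereas 45 members still rose and 1 fell under TMM. The median log2 fold change, aged minus young on log2(CPM + 1), was 0.73 for the members and 0.03 for all genes tested. The 3 aged libraries lay above the 3 young ones for 46 members and below them for 2, while for 8 the groups overlapped. Among all genes tested 22.5% lay above and 18.3% below. The ratio of group means was at least 1.5 for 35 members, against 12.5% of all genes tested. It was at least 2 for 8 members, against 377 of the 10511 genes tested.

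**Figure D2:**
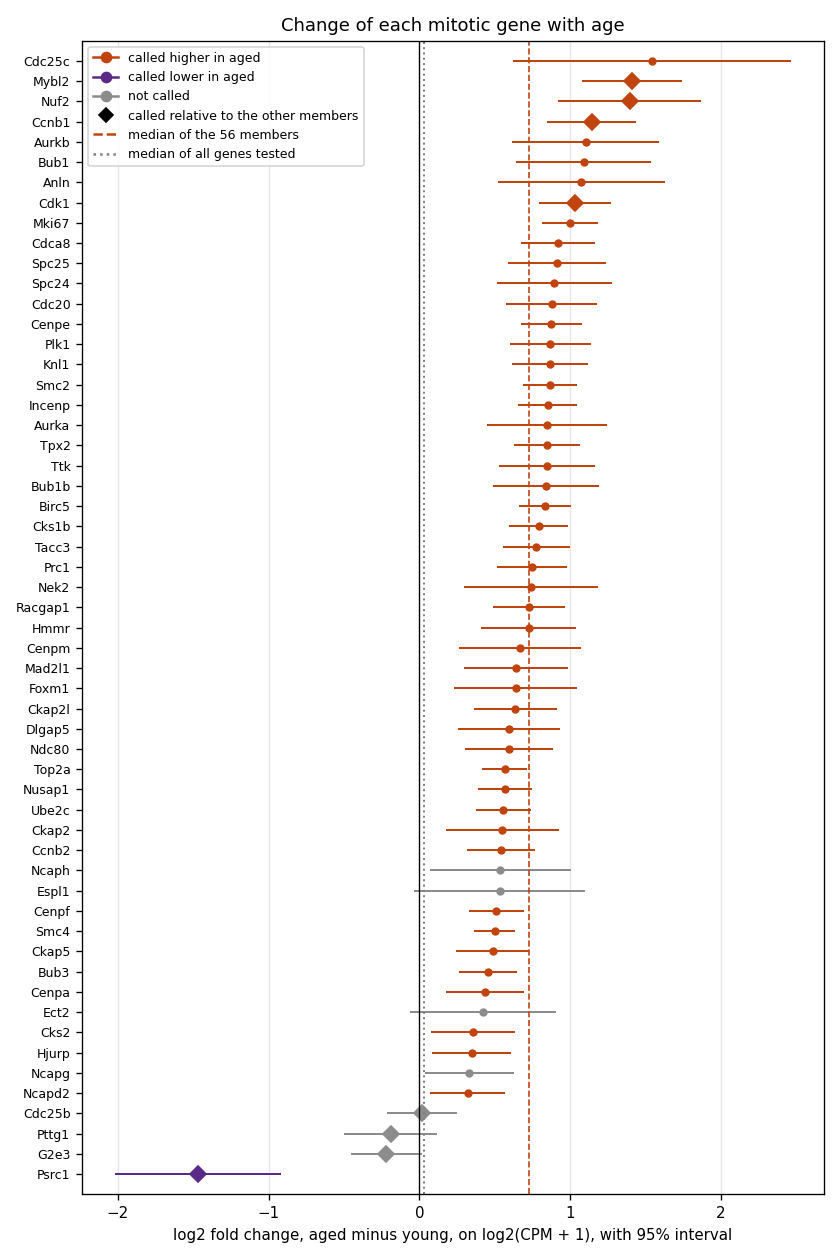
Log2 fold change (aged minus young, on log2(CPM + 1)) of each of the 56 mitotic genes with its 95% interval, coloured by call, with diamonds for the 8 genes that differed from the mean change of the other members. The dashed line is the members' median of 0.73 and the dotted line the median of all genes tested, 0.03.

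Summed over the 56 genes, the level was 8172, 8202 and 8178 CPM in the aged libraries, against 5337, 4479 and 5777 CPM in the young libraries. The groups did not overlap, and the mean ratio was 1.57. The aged libraries lay close together (8184 ± 15.9 CPM, SD, n = 3), while the young ones spread widely (5198 ± 660.0 CPM, SD, n = 3). Mitotic transcripts made up 0.817% to 0.820% of reads in aged and 0.448% to 0.578% in young libraries. Top2a alone carried 1389 to 1452 CPM of the aged sums, and without it the ratio was 1.597.

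The spread within the young group ran through nearly all members. Young replicate 2 was the lowest of the 3 young libraries for 52 of the 56 genes, against 39.3% of all genes tested, and young replicate 3 was the highest for 42, against 38.8%. In the median member the young libraries stood at 1.00, 0.837 and 1.14 times the young mean, and the aged ones at 1.63, 1.72 and 1.66 times. Without young replicate 2 the summed ratio was 1.47, the median log2 fold change 0.59 and the number of members that rose 41. Without young replicate 3 these were 1.67, 0.81 and 50.

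**Figure D3:**
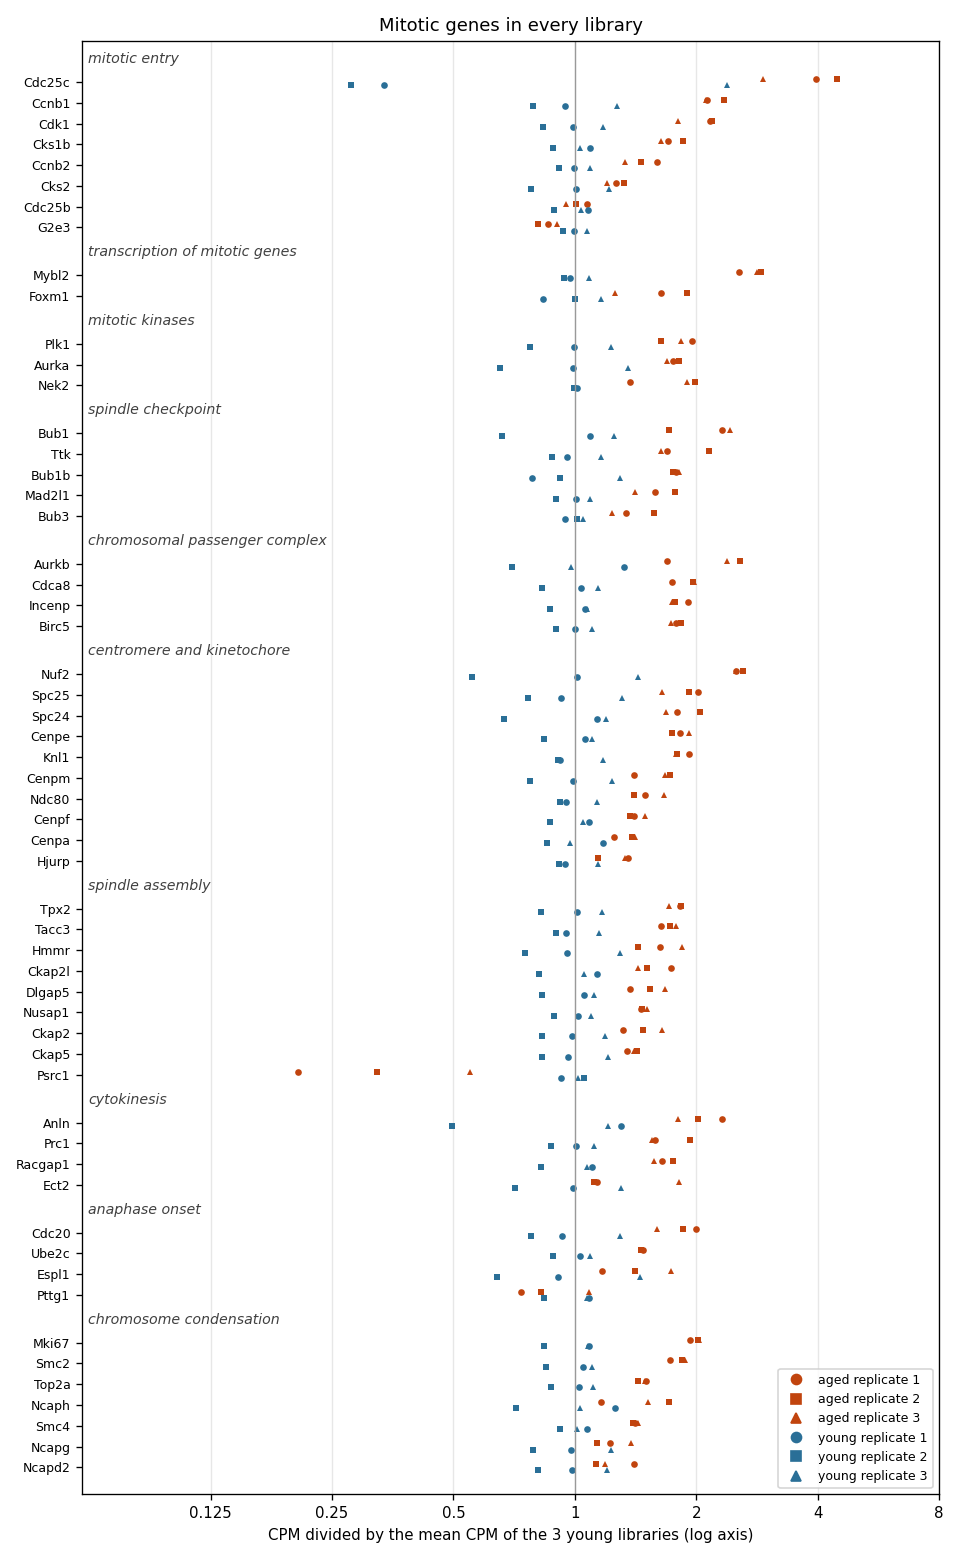
CPM of each mitotic gene in every library, divided by the mean of the 3 young libraries (log axis), with aged libraries in orange and young libraries in blue and the replicate number as the symbol. Nearly all orange points lie right of the blue ones, the young replicate 2 square is usually the leftmost, and Psrc1 is the gene whose orange points lie far to the left.

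Genes of mitotic entry rose unevenly: 6 of 8 rose and Cdc25b and G2e3 were not called. Cdk1, the kinase that starts mitosis, had 203, 205 and 169 CPM in aged libraries, against 93.03, 78.3 and 111 CPM in young libraries. Its aged mean was 2.05 times the young mean (log2 fold change 1.03, SE 0.11, limma adjusted p = 1.18e-06), and every aged library was above every young one. Ccnb1, its main cyclin partner, had 98.8, 109 and 98.4 CPM in aged and 43.9, 36.6 and 59.2 CPM in young libraries, again without overlap. Its log2 fold change was 1.14 (SE 0.14, limma adjusted p = 4.27e-06). The second B-type cyclin, Ccnb2, was the more abundant in young cells and had the smaller change, with 114, 104 and 94.6 CPM in aged and 70.9, 64.97 and 77.2 CPM in young libraries (log2 fold change 0.54, limma adjusted p = 0.000549). Aged libraries held the 2 cyclins at almost equal levels, whereas Ccnb2 was the higher one in each young library.

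The same contrast within a pair was seen for the small CDK-binding subunits. Cks1b had 192, 209 and 184 CPM in aged and 122, 99.1 and 116 CPM in young libraries, with a log2 fold change of 0.79 (limma adjusted p = 2.72e-06). Cks2 had 83.99, 88.2 and 80.01 CPM in aged and 66.95, 51.7 and 80.7 CPM in young libraries, and young replicate 3 lay above aged replicate 3. Its log2 fold change was 0.36 with a limma adjusted p of 0.0466, and the call was lost in 13 of 17 alternatives (adjusted p from 0.00488 to 0.281).

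The CDC25 phosphatases remove the inhibitory phosphates from CDK1. Cdc25b was not called, with 80.9, 76.3 and 72.01 CPM in aged and 81.3, 67.1 and 78.4 CPM in young libraries and a log2 fold change of 0.018 (95% interval -0.20 to 0.24), whose sign turned negative under every other scaling tried. Cdc25c was scarce, with 5.12, 5.75 and 3.76 CPM in aged and 0.435, 0.359 and 3.07 CPM in young libraries, of which the first and second young values are 1 read each. Its log2 fold change was 1.54 (SE 0.44, limma adjusted p = 0.0116). The call did not hold without young replicate 1, without young replicate 2 or with DESeq2 (adjusted p up to 0.0890). G2e3, a ubiquitin ligase named for its G2 to M phase expression, had 57.9, 54.4 and 60.7 CPM in aged and 66.95, 62.8 and 72.2 CPM in young libraries. Each aged library was below each young one, yet the log2 fold change of -0.22 (95% interval -0.45 to 0.01) gave a limma adjusted p of 0.149, which passed only with upper-quartile scaling (0.0411).

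Both transcription factors of the late cell cycle rose. Mybl2, which encodes B-MYB, had 39.9, 45.2 and 44.2 CPM in aged libraries, against 15.2, 14.7 and 16.9 CPM in young libraries. The groups lay far apart, with a ratio of means of 2.76 and a log2 fold change of 1.41 (SE 0.16, limma adjusted p = 1.65e-06). Foxm1, which acts after B-MYB on the same promoters, had 28.2, 32.6 and 21.6 CPM in aged and 14.3, 17.2 and 19.98 CPM in young libraries. Here aged replicate 3 lay just above young replicate 3, and the log2 fold change was 0.64 (SE 0.19, limma adjusted p = 0.0164). The Foxm1 call did not hold without aged replicate 1, aged replicate 2 or young replicate 1, or with DESeq2 (adjusted p up to 0.0954).

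All 3 mitotic kinases of the list rose. Plk1, the Polo kinase of entry and spindle formation, had 180.3, 151 and 169 CPM in aged and 91.7, 71.4 and 113 CPM in young libraries (log2 fold change 0.87, limma adjusted p = 3.01e-05). Aurka, the Aurora kinase of the spindle poles, had 49.2, 50.99 and 47.5 CPM in aged and 27.8, 18.3 and 38.04 CPM in young libraries. The young values differed among themselves by more than the aged ones, and the log2 fold change was 0.85 (limma adjusted p = 0.002). Nek2, a centrosome kinase, had 15.4, 22.2 and 21.2 CPM in aged and 11.3, 11.1 and 11.1 CPM in young libraries, with a log2 fold change of 0.74 (limma adjusted p = 0.0113). The Nek2 call was lost without aged replicate 2 and with DESeq2 (adjusted p up to 0.0761).

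The 5 spindle checkpoint genes all rose, by log2 fold changes of 0.46 to 1.09. Bub1, the kinetochore kinase that gathers checkpoint proteins, had 37.9, 27.98 and 39.5 CPM in aged and 17.8, 10.8 and 20.4 CPM in young libraries, and its ratio of means was 2.15. Bub1b (BUBR1), part of the complex that inhibits CDC20, had 44.6, 43.7 and 45.2 CPM in aged and 19.6, 22.97 and 32.3 CPM in young libraries. Ttk (MPS1), the kinase at the top of the checkpoint, had 49.2, 62.5 and 47.5 CPM in aged and 27.8, 25.5 and 33.8 CPM in young libraries. These 3 genes had adjusted p-values of 0.000597, 0.000709 and 0.000232 in limma, and none of them overlapped between the groups. Mad2l1 (MAD2), which binds CDC20 directly, had a log2 fold change of 0.64 (limma adjusted p = 0.00526), a call lost with DESeq2 (adjusted p = 0.0522). Bub3, the most abundant of the 5 and the partner that recruits BUB1 and BUBR1, rose least, with 206, 241 and 190.1 CPM in aged and 145, 155 and 161 CPM in young libraries (log2 fold change 0.46, limma adjusted p = 0.000616).

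The chromosomal passenger complex joins the kinase Aurora B to INCENP, survivin and borealin, and its 4 genes rose by log2 fold changes of 0.83 to 1.10. Birc5 (survivin) had 329, 339 and 319.6 CPM in aged and 185, 166 and 204 CPM in young libraries, Incenp 218, 202 and 199.5 CPM in aged and 122, 99.4 and 123 CPM in young, and Cdca8 (borealin) 116, 131 and 132 CPM in aged and 69.1, 55.3 and 76.1 CPM in young. Their log2 fold changes were 0.83, 0.85 and 0.92 (limma adjusted p = 2.54e-07, 1.07e-06 and 5.48e-06). Aurkb itself was the scarcest, with 19.97, 30.3 and 28.2 CPM in aged and 15.7, 8.26 and 11.5 CPM in young libraries, and had a log2 fold change of 1.10 (SE 0.23, limma adjusted p = 0.00112). For all 4 the aged libraries lay above the young ones.

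All 10 centromere and kinetochore genes rose, and none overlapped between the groups. Nuf2, which with NDC80 forms the microtubule-binding arm of the NDC80 complex, had 48.7, 50.6 and 48.5 CPM in aged libraries, against 19.6, 10.8 and 27.7 CPM in young libraries. The aged values nearly coincided while young replicate 3 was more than 2 times young replicate 2, and the ratio of means was 2.55 (log2 fold change 1.40, SE 0.22, limma adjusted p = 9.55e-05). Ndc80 had 48.7, 45.6 and 54.1 CPM in aged and 30.9, 29.8 and 36.9 CPM in young libraries, a log2 fold change of 0.59 (limma adjusted p = 0.0026). The 2 subunits of the inner end of the complex, Spc24 and Spc25, rose by 0.90 and 0.91 on the log2 scale. Knl1, the scaffold for BUB1 and BUBR1, had 91.7, 85.9 and 85.2 CPM in aged and 43.9, 43.4 and 56.1 CPM in young libraries (log2 fold change 0.87, limma adjusted p = 1.59e-05).

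Cenpe, the kinesin of the kinetochore, had 241, 230.4 and 253 CPM in aged and 140.0, 111 and 146 CPM in young libraries, and rose by 0.88 on the log2 scale (limma adjusted p = 1.18e-06). Cenpf, a kinetochore protein that appears in G2, rose by 0.51 (limma adjusted p = 0.00014). The smallest changes of this group were those of the centromere's own histone and its chaperone. Cenpa had 72.7, 80.5 and 81.9 CPM in aged and 68.3, 49.5 and 56.5 CPM in young libraries and Hjurp, which loads it, had 69.1, 58.3 and 67.8 CPM in aged and 48.3, 46.7 and 58.02 CPM in young libraries. Their log2 fold changes were 0.44 and 0.35 (limma adjusted p = 0.00996 and 0.0379). The Hjurp call was lost in 10 of 17 alternatives (adjusted p from 0.0147 to 0.245), and those of Cenpa and of Cenpm, a subunit of the constitutive centromere network, without young replicate 2 and with DESeq2 (adjusted p up to 0.0745 and 0.0845).

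Of 9 spindle genes 8 rose, by log2 fold changes of 0.49 to 0.85, and Psrc1 fell. Tpx2, which activates Aurora A on microtubules, had 209, 210.1 and 197 CPM in aged and 116, 94.4 and 134 CPM in young libraries (log2 fold change 0.85, limma adjusted p = 4.49e-06). Tacc3 and Ckap5 (chTOG), partners on spindle microtubules, rose by 0.78 and 0.49 (limma adjusted p = 1.28e-05 and 0.00283). Nusap1, a microtubule bundler, had 233, 235 and 241 CPM in aged and 163, 141 and 175 CPM in young libraries and rose by 0.57. Hmmr, Ckap2l, Dlgap5 (HURP) and Ckap2 rose by 0.73, 0.64, 0.60 and 0.55 on the log2 scale. Of these, Ckap2 lost its call in 5 of 17 alternatives (adjusted p from 0.0123 to 0.157) and Dlgap5 with DESeq2 (adjusted p = 0.0632).

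Psrc1 (DDA3), a microtubule-binding protein of the spindle, had 5.12, 8.05 and 13.6 CPM in aged libraries, against 23.04, 26.2 and 25.4 CPM in young libraries. Each aged library was below each young one, and aged replicate 3 was the nearest to them. The aged mean was 0.359 of the young mean, a log2 fold change of -1.47 (SE 0.26, 95% interval -2.01 to -0.93, limma adjusted p = 0.000249). It fell in each of the 17 alternatives, where the log2 fold change ran from -1.80 to -1.14. Psrc1 lies on chromosome 3 from 108383839 to 108388231 (GRCm38, plus strand), and no other annotated gene shares exon sequence with it.

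Among 4 cytokinesis genes 3 rose. Anln (anillin), the scaffold of the contractile ring, had 30.2, 26.5 and 23.5 CPM in aged and 16.95, 6.46 and 15.8 CPM in young libraries, with a log2 fold change of 1.08 (SE 0.26, limma adjusted p = 0.00415). Young replicate 2 stood well below the other 2 young libraries. Prc1, which bundles the central spindle, and Racgap1, part of centralspindlin, rose by 0.75 and 0.73 (limma adjusted p = 3.03e-05 and 6.46e-05). Ect2, the exchange factor that activates RhoA at the division plane, had 19.5, 19.2 and 31.1 CPM in aged and 16.95, 12.2 and 22.3 CPM in young libraries. The groups overlapped, and its log2 fold change of 0.42 (95% interval -0.06 to 0.90) was not called (limma adjusted p = 0.186).

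Genes of anaphase onset were divided. Cdc20, the APC/C activator, had 122, 113 and 97.4 CPM in aged and 56.5, 47.4 and 78.8 CPM in young libraries (log2 fold change 0.88, limma adjusted p = 0.00011). Ube2c, the ubiquitin-conjugating enzyme of the APC/C, had 228, 224 and 227 CPM in aged and 159, 136 and 168 CPM in young libraries (log2 fold change 0.56, limma adjusted p = 4.95e-05). Both were above the young libraries in each aged library. Pttg1, which encodes securin, the inhibitor of separase, had 42.00, 47.2 and 62.1 CPM in aged and 62.2, 48.1 and 61.5 CPM in young libraries. Its groups overlapped, with a log2 fold change of -0.19 (95% interval -0.49 to 0.11, limma adjusted p = 0.367). Espl1, which encodes separase, had 11.8, 14.2 and 17.4 CPM in aged and 9.13, 6.46 and 14.6 CPM in young libraries, also with overlap (log2 fold change 0.53, 95% interval -0.03 to 1.09, limma adjusted p = 0.15). It was called without young replicate 3 (limma adjusted p = 0.0337).

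Chromosome condensation held the most abundant members. Top2a, the topoisomerase that untangles sister chromatids, had 1452, 1389 and 1448 CPM in aged and 989.9, 844 and 1071 CPM in young libraries (log2 fold change 0.57, limma adjusted p = 4.11e-06). Mki67, which coats mitotic chromosomes and marks dividing cells, had 454, 474 and 478 CPM in aged and 255, 197 and 254 CPM in young libraries, and its ratio of means was 1.99 (log2 fold change 1.00, limma adjusted p = 7.43e-08). Groups were far apart for both.

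Of the 5 condensin I genes the 2 shared core subunits and Ncapd2 rose. Smc2 had 441, 473 and 479.6 CPM in aged and 268, 217 and 282 CPM in young libraries, and Smc4 had 732, 722 and 746 CPM in aged and 556, 477 and 524 CPM in young libraries. Their log2 fold changes were 0.87 and 0.50 (limma adjusted p = 3.15e-07 and 6.43e-06). The 3 subunits specific to condensin I overlapped between the groups. Ncapd2 had 182, 147 and 155 CPM in aged and 128, 106 and 157 CPM in young libraries, and its call (log2 fold change 0.32, limma adjusted p = 0.0451) was lost in 12 of 17 alternatives (adjusted p from 0.00305 to 0.271). Ncapg, with a log2 fold change of 0.33 (95% interval 0.04 to 0.62, limma adjusted p = 0.0794), and Ncaph, with 0.54 (95% interval 0.07 to 1.00, limma adjusted p = 0.0775), were not called. Ncapg was called without young replicate 3 (limma adjusted p = 0.00885), and Ncaph without aged replicate 1 or young replicate 1 (limma adjusted p as low as 0.0420).

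Whether a member changed by more or less than the others was tested with limma on its log2 level minus the mean of the other members in the same library, a difference in which the scaling of the library nearly cancels. Of the 56 members 4 were higher by this measure, 4 were lower and 48 were not called. Among all genes tested 0.714% were higher and 58.8% lower, since the reference is a set that itself rose. Mybl2 exceeded the others by 0.76 on the log2 scale (SE 0.22, limma adjusted p = 0.00215) and Nuf2 by 0.74 (SE 0.21, limma adjusted p = 0.00193). Ccnb1 exceeded them by 0.48 (SE 0.18, limma adjusted p = 0.0149) and Cdk1 by 0.37 (SE 0.16, limma adjusted p = 0.0405). The last 2 calls depended on single libraries, since neither held without aged replicate 1, aged replicate 2 or young replicate 1 (adjusted p up to 0.0874 for Ccnb1 and 0.197 for Cdk1), and that of Cdk1 was also lost with a pseudocount of 0.1.

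On the other side, Psrc1 departed from the mean of the other members by -2.18 (SE 0.27, limma adjusted p = 9.86e-13). G2e3 departed by -0.90 (limma adjusted p = 8.97e-06), Pttg1 by -0.87 (limma adjusted p = 3.22e-05) and Cdc25b by -0.66 (limma adjusted p = 0.000732). These 4 kept their calls in all 11 alternatives of this fit. In CPM 3 of the 4, G2e3, Pttg1 and Cdc25b, were not called in either direction, so that their departure is from members that rose.

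**Figure D4:**
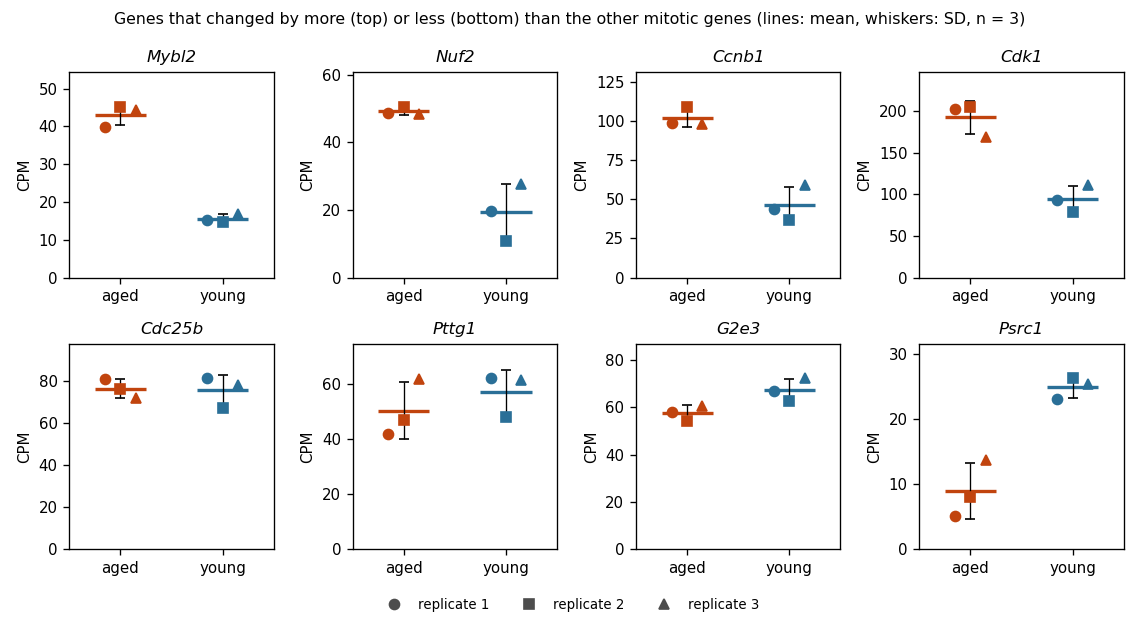
CPM per library of the 8 genes that differed from the mean change of the other mitotic genes, aged left and young right in each panel, with the mean and SD (n = 3). In the top row the aged libraries lie above the young ones, while in the bottom row Cdc25b and Pttg1 overlap and G2e3 and Psrc1 lie lower in aged libraries.

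Genes of related function were set against each other in 14 pairs. Some pairs are partners within a complex, such as Nuf2 and Ndc80. Others are genes of the same kind, such as the B-type cyclins, the CDK-binding subunits, the CDC25 phosphatases and Mybl2 with Foxm1. The pairs were chosen after the values had been seen, so that the ratios are a description without a test. In 7 pairs the ratio did not overlap between the groups. Among all single genes tested 22.5% lay above and 18.3% below, and no such share was computed for other gene pairs. The ratio of Ccnb1 to Ccnb2 was 0.869, 1.05 and 1.04 in aged and 0.62, 0.564 and 0.766 in young libraries, and that of Cks1b to Cks2 was 2.28, 2.37 and 2.29 in aged and 1.82, 1.92 and 1.43 in young libraries. For Nuf2 over Ndc80 it was 1.00, 1.11 and 0.896 in aged and 0.634, 0.361 and 0.75 in young libraries. In the condensin core Smc2 over Smc4 was 0.603, 0.654 and 0.643 in aged and 0.483, 0.455 and 0.538 in young libraries. Separase over securin (Espl1 over Pttg1) was 0.28, 0.301 and 0.28 in aged and 0.147, 0.134 and 0.238 in young libraries, and Mybl2 over Foxm1 was 1.42, 1.39 and 2.04 in aged and 1.06, 0.854 and 0.846 in young libraries. The other pair without overlap was Cdc25c over Cdc25b, at 0.0633, 0.0754 and 0.0523 in aged and 0.00535, 0.00535 and 0.0392 in young libraries. Its first and second young ratios rest on 1 read of Cdc25c each. Aurkb over Incenp, Aurka over Tpx2, Bub1 over Bub1b, Cenpa over Hjurp, Spc24 over Spc25, Ncaph over Ncapg and Cdc20 over Ube2c overlapped between the groups.

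Of 136 further mitosis genes in 8 lists 135 were tested, of which 68 rose and 2 fell (Rbl2 and Pdcd6ip), with a median log2 fold change of 0.39, while among all genes tested 16.2% rose and the median was 0.03. The lists differed. Other entry and exit genes rose in 10 of 17 cases (median 0.70), other centromere and kinetochore genes in 21 of 33 (median 0.63), condensin II genes in 2 of 3 (median 0.66) and other spindle and centrosome genes in 14 of 23 (median 0.49). Cohesin genes rose in 7 of 15 cases (median 0.29). Of the APC/C genes 4 of 17 rose, or 23.5% (median 0.22), a share near that of all genes. Of other cytokinesis genes 5 of 16 rose, with a median of 0.023, no higher than that of all genes, and of the DREAM and MuvB complex 5 of 11 (median 0.34). Each of the last 2 lists held 1 of the 2 genes that fell. These lists were drawn up by function, with earlier results of these data known.

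Single genes of these lists reached the size of the members. Trip13, which dismantles checkpoint complexes, had 51.2, 49.1 and 37.2 CPM in aged and 18.3, 13.3 and 23.8 CPM in young libraries (log2 fold change 1.29, limma adjusted p = 4.25e-05). Ska1, of the complex that couples kinetochores to microtubules, had 32.8, 42.2 and 32.5 CPM in aged and 13.04, 8.26 and 20.7 CPM in young libraries (log2 fold change 1.37, limma adjusted p = 0.000217). Sgo1 (shugoshin), the guardian of centromeric cohesin, had 62.5, 71.7 and 50.4 CPM in aged and 23.9, 22.97 and 35.7 CPM in young libraries (log2 fold change 1.14, limma adjusted p = 3.77e-05). All 3 were above the young libraries in each aged library. Ccna2, the cyclin of S phase and G2, rose by 1.03 and Fbxo5 (EMI1), the APC/C inhibitor, by 0.91 (limma adjusted p = 4.04e-06 and 5.09e-05).

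Core APC/C and cohesin genes had smaller log2 fold changes. Anapc1, an APC/C scaffold subunit, rose by 0.45 (limma adjusted p = 0.0138), while Anapc5, the most abundant gene of that list, did not pass (0.19, limma adjusted p = 0.109). The cohesin ring genes Smc1a and Smc3 rose by 0.34 and 0.41 (limma adjusted p = 0.000163 and 0.000109). Of condensin II, Ncapg2 and Ncapd3 rose by 0.82 and 0.66 (limma adjusted p = 0.000884 and 0.00839), and Ncaph2 did not pass (0.083, limma adjusted p = 0.588). Rbl2 (p130), the pocket protein of the DREAM complex that represses cell cycle genes in resting cells, had 65.6, 70.9 and 73.4 CPM in aged and 117, 77.2 and 179 CPM in young libraries. All aged values were below the young ones, which spread more than 2 times among themselves, and the log2 fold change was -0.74 (limma adjusted p = 0.00496). Rbbp4, the most abundant DREAM and MuvB gene, rose by 0.39 (limma adjusted p = 0.000708).

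Genes of S phase, when DNA is copied, rose as well. Among all genes tested 16.2% rose and 12.5% fell, with a median log2 fold change of 0.03. Of the 24 S phase genes 21 rose and none fell, with a median of 0.84. Their sum was 2546, 2549 and 2454 CPM in aged libraries, against 1356, 1234 and 1530 CPM in young libraries, a ratio of means of 1.83. Rrm2, the small subunit of ribonucleotide reductase, had 126, 168 and 131 CPM in aged and 54.3, 45.6 and 69.2 CPM in young libraries (log2 fold change 1.32, limma adjusted p = 6.14e-07). Mcm7, of the replicative helicase, had 426, 427 and 416 CPM in aged and 202, 175 and 241 CPM in young libraries (log2 fold change 1.05, limma adjusted p = 7.25e-08). The sum of the 56 mitotic genes was 3.21, 3.22 and 3.33 times the S phase sum in aged libraries, against 3.93, 3.63 and 3.78 times in young libraries. Mitotic transcripts were thus lower relative to S phase transcripts in each aged library, although both sums were higher there. This ratio was not tested. Gene by gene, 3 of the 24, Rrm2 and Mcm7 among them, were called higher relative to the mean of the 56 members, and 21 were not called. Among all genes tested 0.714% were higher by that measure and 58.8% lower.

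**Figure D5:**
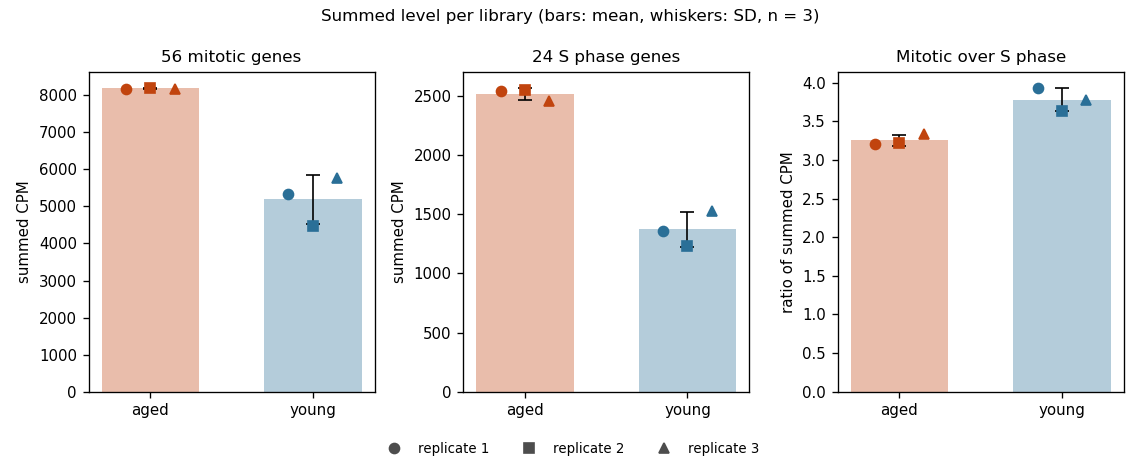
Summed CPM of the 56 mitotic genes (left) and of 24 S phase genes (middle) and the ratio of the 2 sums (right), per library, aged left of young, with bars for the mean and whiskers for the SD (n = 3). Both sums are higher in the aged libraries and the ratio is lower there, 3.21 to 3.33 in aged against 3.63 to 3.93 in young libraries.

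Some members may share reads with other genes. On the GENCODE vM21 annotation of GRCm38, exons of 12 members overlap a gene on the opposite strand (Cdc25b, Cdc25c, Plk1, Nek2, Cdca8, Nusap1, Ckap2l, Tacc3, Prc1, Cdc20, Ube2c and Ncapg) and those of 4 overlap one on the same strand (Foxm1, Ckap5, Top2a and Ncapd2). How the counting treated strand is not given in the sources used here. Of the 40 members without such an overlap 34 rose and 1 fell. The last 200 bases of transcripts of Ccnb1, Cks1b, Mybl2, Plk1 and Ndc80 match a pseudogene or retrocopy. Those of Cenpf, Dlgap5 and Ube2c match transcripts of many genes. A match had 95% identity or more over at least 100 bases. Its place in the matched transcript was not recorded, so a shared 3′ end is not shown. Among the copies of the first 5, Cks1brt had no more than 0.435 CPM in any library, and no value of the others was used here. Genes whose transcripts match those bases of the other 3 include abundant ones. Gtpbp4, a match of Cenpf, had 259 to 269 CPM in aged and 179 to 202 CPM in young libraries. Wdr1, a match of Dlgap5 and Ube2c, had 229 to 235 CPM in aged and 195 to 205 CPM in young libraries. The values of these 8 members are uncertain to the extent that reads were shared, which was not tested.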

How the data were processed

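Libraries were prepared from 500 ng of total RNA with a QuantSeq kit for the 3′ ends of polyadenylated transcripts, per the labels' protocols, so values are tags per transcript and are not scaled by length. Per the submitters' processing notes the build was GRCm38, also named mm10. Which aligner and counting program were run, and on which annotation, is not given in the sources used here. CPM values for 25655 Ensembl identifiers, 1 of them blank, were deposited for each library, and 25599 identifiers matched a symbol. Whole reads were recovered from them, since 100% of values were whole multiples of 1 read within 0.001 reads. An edgeR 4.0.16 quasi-likelihood test on these reads called 1443 genes higher and 1557 lower in aged cells. The column header for aged replicate 2 names replicate 3. The library was used as replicate 2, as recorded for its sample, and it is not a copy of aged replicate 3. Replicate pairs differed beyond counting noise (chi-square per degree of freedom 1.72 to 2.90), and floors cover counting error only.

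The main test was limma 3.58.1 (R 4.3.3) with an intensity trend on log2(CPM + 1), two-sided, over the 10511 genes that averaged 1 CPM or more, with age group as the only term and Benjamini-Hochberg adjustment at 0.05. Fold changes on this scale understate the change of low genes. The test against the other members used the same fit on differences within a library. Both fits were tested on simulated data. The alternatives were 3 other scalings (RLE, TMM and upper quartile), no filter or one at 5 CPM, pseudocounts of 0.1 and 5, the replicate number as a block, leaving out each library, and edgeR, DESeq2 1.42.0 and limma-voom on recovered reads. Named genes were all members, the 3 genes with the smallest p and the most abundant gene of each list, of which examples are given, and the cell type markers, some of which are not reported here. The members and lists were chosen with earlier results of these data known. Letters were searched on both strands of RefSeq promoters, and 3′ ends of members were compared with whole transcripts by BLAST 2.17.0.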

Additional observations from a re-analysis of the deposited data

How the results depend on the processing

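The number of members that rose, 48 in the report, was 45 under RLE, TMM and upper-quartile scaling, edgeR and limma-voom, 37 with DESeq2, and 41 to 50 when a library was left out. The number that fell was 1 in these settings except with upper-quartile scaling, where it was 2, with G2e3 the added gene. All genes that rose and fell, 1701 and 1313 in the report, were 1451 and 1532 under RLE, 1428 and 1555 under TMM and 1306 and 1690 under upper-quartile scaling, 1443 and 1557 with edgeR, 1435 and 1520 with limma-voom and 944 and 1014 with DESeq2. Without a library they were 1322 to 1582 and 1011 to 1207. Of the further mitosis genes 68 rose in the report and 38 with DESeq2, and 51 to 69 under the other alternatives. The 2 that fell became 4 under RLE and TMM scaling and with edgeR, 7 under upper-quartile scaling, 5 with limma-voom, 1 with DESeq2 and 2 to 4 without a library. The members' median log2 fold change was 0.59 to 0.81 and their summed ratio 1.47 to 1.67 without a library. S phase genes that rose numbered 20 to 22 in these alternatives. Members above and below the mean of the others, 4 and 4 in the report, were 2 to 6 and 4 to 7 without a library.

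The log2 fold change of Cdc25b, 0.018 in the report, was -0.030 under RLE, -0.035 under TMM and -0.064 under upper-quartile scaling, -0.035 with edgeR, -0.031 with DESeq2 and -0.032 with limma-voom, and -0.064 to 0.072 without a library. The cause of these shifts was not tested. Replicate numbers showed no visible pairing of the libraries. Deviations of same-numbered libraries correlated at 0.0209, 0.00025 and 0.0028 across genes, and the highest correlation, 0.0242, was between aged replicate 2 and young replicate 3. Counting error lowers such correlations, so they cannot decide whether same-numbered libraries were handled together. With the number as a block 49 members rose and 1 fell, 1725 genes rose and 1336 fell in all, and 3 members were above and 4 below the mean of the others. Under the block Ncapg was called higher, and Cdk1 no longer exceeded the mean of the others at the threshold. At this depth the scarcest member, Cdc25c, rests on 1 read in each of 2 young libraries.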
